A study of Mus musculus with 7 samples.

Results

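DNA damage response and repair genes were followed in RNA-seq libraries of mouse embryonic fibroblasts (MEFs) and mouse embryonic stem cells (mESCs). The members were taken from a fixed list of 52 gene symbols, which was chosen with earlier results of these data known. All 52 were found among the 55484 genes of the count table. The list covers damage signalling (8 genes), the Mre11a-Rad50-Nbn complex (3), homologous recombination (10), the Fanconi anaemia pathway (6), mismatch repair (4), base excision repair (9), nucleotide excision repair (6), non-homologous end joining (5) and direct reversal (1). MEFs are connective tissue cells grown from mid-gestation embryos, whereas mESCs are self-renewing lines derived from the blastocyst that can form every tissue of the animal. The libraries of 4 MEF and 3 mESC samples were compared. The study gives a C57/Bl6 background for all its MEFs and mESCs, in its methods for the ATAC-seq libraries. The sources used here give no treatment, culture age or embryo age for either group. The study used these libraries as reference expression data beside an ATAC-seq comparison. It describes a surface-marker sort for the ATAC-seq cells (THY1 for fibroblasts, SSEA1 and EPCAM without THY1 for stem cells) and states none for the RNA libraries. The extraction protocol in the sample labels is written for young and aged blood stem cells rather than for these cells.

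The libraries held between 6528643 and 11441278 counts on genes and are named A to D (MEF) and A to C (mESC) in falling order of this total. Levels are given as CPM, the counts of a gene per 1000000 counts of the library size after TMM scaling, which adjusts for differences in RNA composition. A floor of 3 counts in a library stood between 0.288 and 0.477 CPM on this scale and covers counting error only. The 7 stem cell markers (Pou5f1, Sox2, Nanog and others) had between 0.462 and 2.0% of their mESC level in MEFs, and the 8 fibroblast markers (Thy1, Col1a1, Lum and others) had between 0.412 and 16.6% of their MEF level in mESCs, so both labels matched their markers. Reads were taken near the 3′ end of transcripts and counted by molecular identifier, so counts were not scaled by length and levels are compared here between cell types and not between genes. In bulk libraries such as these, fewer cells with a transcript and less of it per cell cannot be told apart. The study calls its RNA samples biological replicates, with fewer MEF samples plotted than the libraries used here, and the sources do not say which were plotted or whether each library came from its own culture or animal. The p-values therefore measure the spread between these samples.

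Cells meet damaged DNA with sensor kinases, which halt the cell cycle through checkpoint kinases and p53, and with repair pathways that each handle a class of lesion. Breaks of both strands are rejoined either by homologous recombination, which copies an intact sister chromatid after replication, or by direct end joining. Mismatch, base excision and nucleotide excision repair deal with replication errors, small base lesions and bulky adducts respectively, and the Fanconi anaemia pathway unhooks crosslinks between strands. Mouse embryonic stem cells are known for rapid cycling with a short gap before S phase and for strong reliance on homologous recombination.

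Most of the members were more abundant in mESCs. Of the 52, 50 had enough counts to be tested, 29 were higher and 2 were lower in mESCs, and 19 did not pass (quasi-likelihood test of edgeR, with p adjusted by the Benjamini-Hochberg method over 16580 genes and a threshold of 0.05). Over all genes tested, 22.8% were called higher, 25.0% lower and 47.9% in either direction. Where libraries of the cell types are said below not to overlap, this describes single genes. The share of all genes without overlap is not given here, so it is no result about the members. The median log2 fold change was 1.0 over the 50 members and 0.04 over all genes tested, and 44 of the 50 values were positive. Because the list was chosen with earlier results of these data known, these contrasts with all genes are descriptions and not independent tests. All but 1 of the 50 (Xrcc3) would have passed the filter on low counts from either cell type alone. When the test asked for a change beyond 1.5-fold, 22 members were higher, against 15.6% of all genes. Msh6, Ung, Brca1, Brca2, Xrcc5 and Parp1 had the largest differences, from 2.13 to 3.27 on the log2 scale, and Xpa and Ercc1 were the members that were lower. Without the TMM scaling, the median over all genes lay 0.28 higher on the log2 scale, and 37 members were called higher and 1 lower, with 5180 genes higher and 3345 lower over the whole table.

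**Figure D1:**
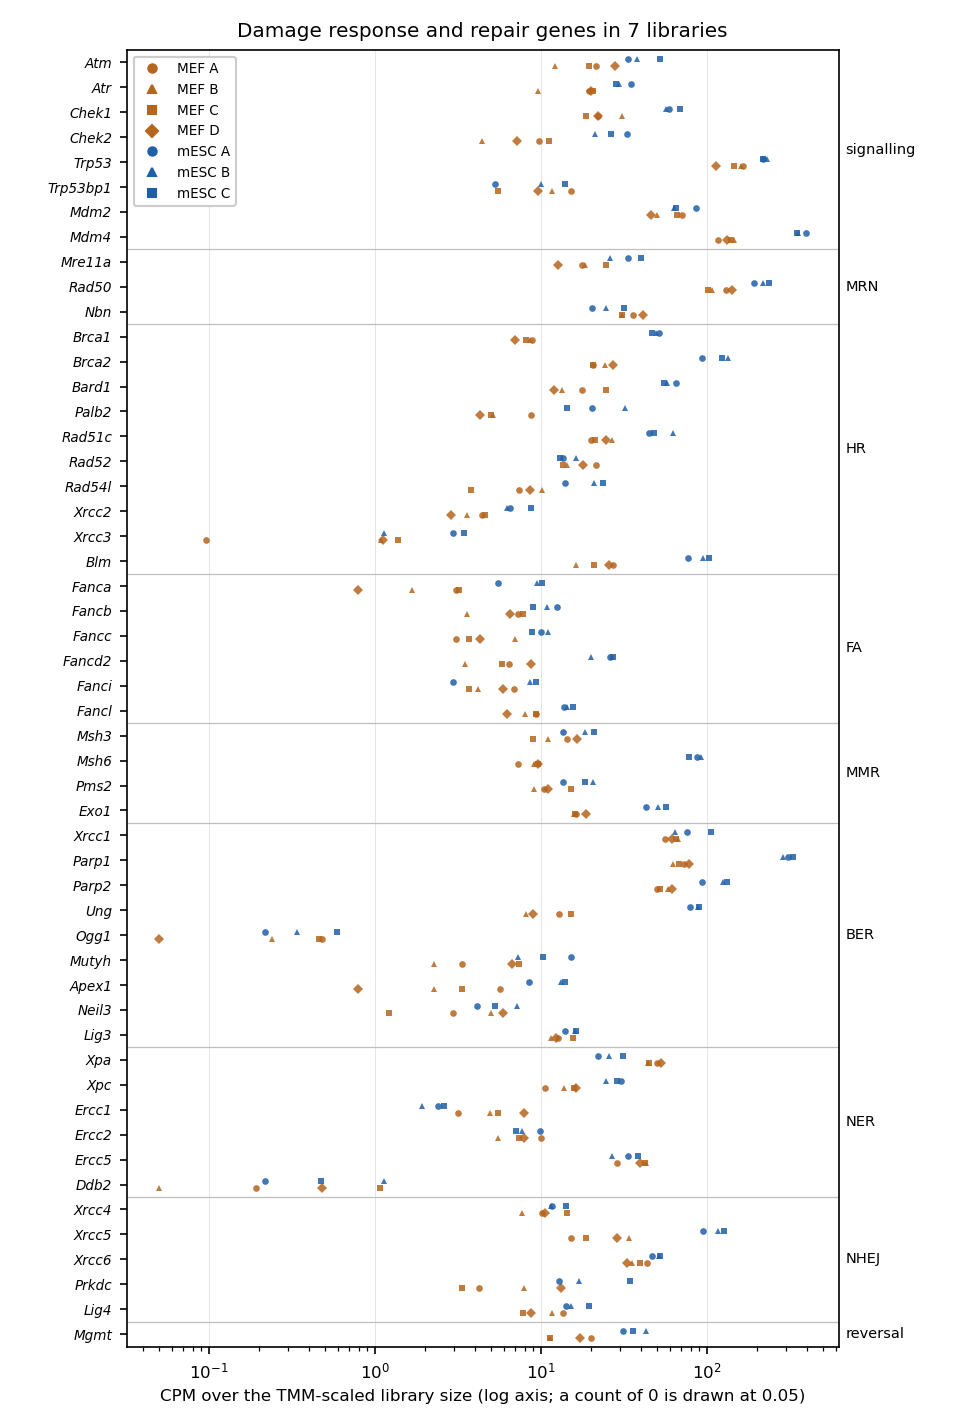
Level of each member in each library, in CPM over the TMM-scaled library size on a log axis, grouped by pathway (MRN, the Mre11a-Rad50-Nbn complex; HR, homologous recombination; FA, Fanconi anaemia; MMR, BER and NER, mismatch, base and nucleotide excision repair; NHEJ, end joining), with MEF libraries in brown and mESC libraries in blue and 1 marker shape per library. The blue points lie to the right of the brown points for most genes of signalling and homologous recombination, for example 46.4 to 51.2 CPM against 7.0 to 8.83 CPM for Brca1, and lie to the left for Xpa and Ercc1.

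**Figure D2:**
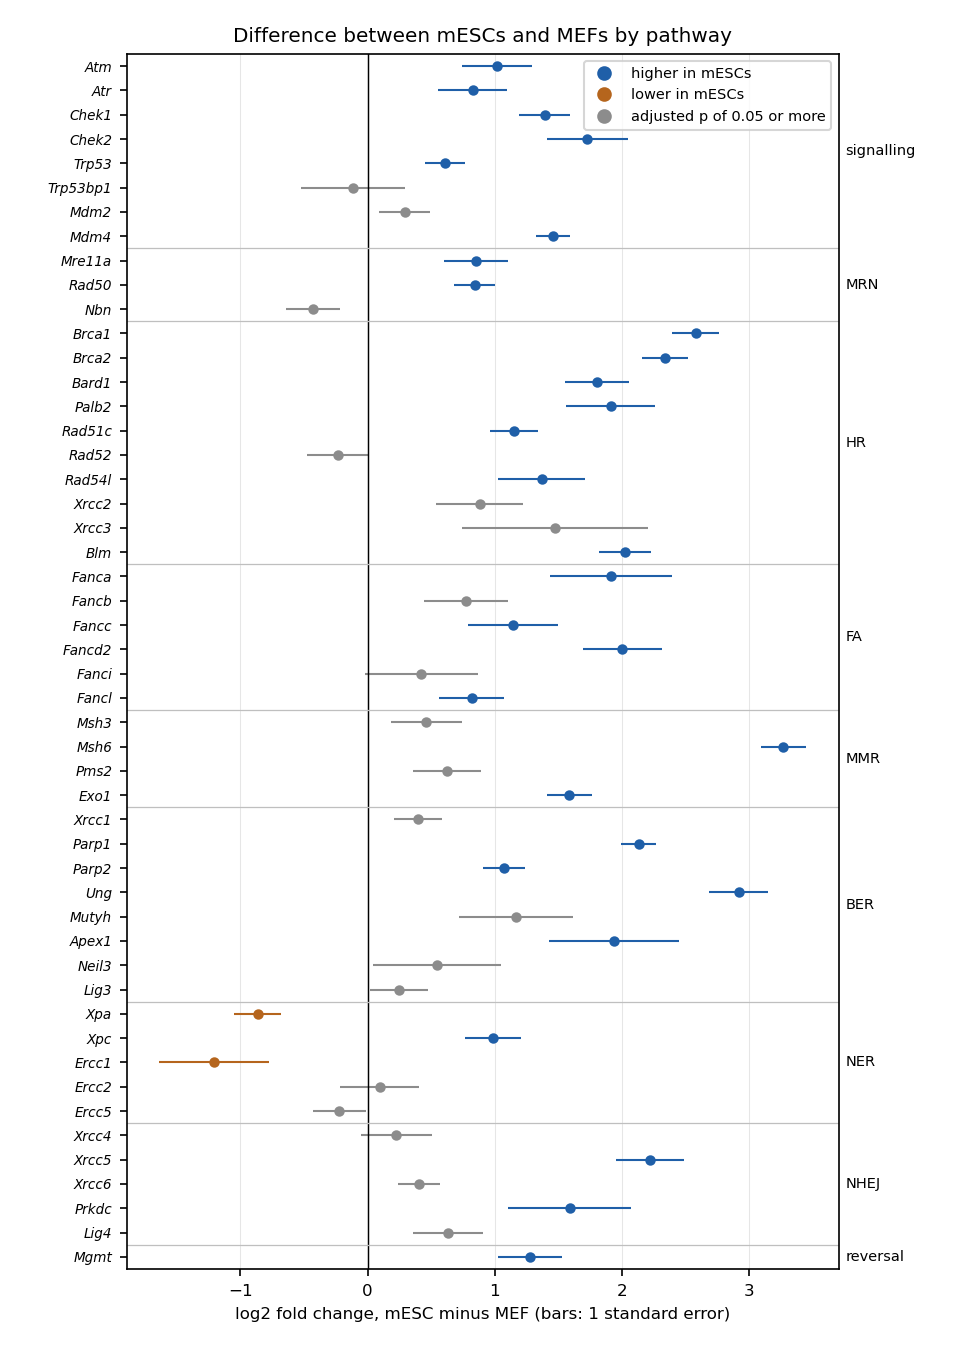
Fitted log2 fold change (mESC minus MEF) of the 50 members tested, with bars of 1 standard error, coloured by the edgeR call at an adjusted p of 0.05. The 29 blue points were called higher and the 2 brown points, both in nucleotide excision repair, were called lower, and the 19 grey points were not called.

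Upstream sequences are shown for the members that carried a binding motif of E2F, the family of factors that drives S-phase genes, since many repair genes are known to follow replication. RefSeq promoter sequences on GRCm38.p6, from 250 bases before to 50 after the start site, were matched to 44 of the 52 members. The letters TTTCGCGC, TTTGGCGC, TTTCCCGC and TTTGCCGC were searched on both strands, and at least 1 of them was found in 7 members, 15.9% of the 44, compared with 2.6% of all 27025 genes with a promoter sequence. Windows around these matches are given 5′ to 3′ on the strand of the gene, with the match in capitals. They were shortened to 30 bases where the window lies in an annotated exon or the match is next to or after the start site.
Chek2, chr5:110839801-110839868, plus strand: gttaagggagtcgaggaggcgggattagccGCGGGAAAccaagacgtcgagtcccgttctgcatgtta
Brca2, chr5:150522423-150522490, plus strand: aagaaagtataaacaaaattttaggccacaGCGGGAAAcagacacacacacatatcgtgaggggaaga
Bard1, chr1:71103163-71103192, minus strand: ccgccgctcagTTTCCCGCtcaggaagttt
Rad51c, chr11:87404941-87404970, minus strand: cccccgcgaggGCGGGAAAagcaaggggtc
Msh3, chr13:92355187-92355216, minus strand: ttgccgtcaagTTTGGCGCgaaatcgcagc
Msh6, chr17:87975054-87975083, plus strand: ctcctcccgacTTTCCCGCcagcggcggcc
Xrcc6, chr15:82016312-82016341, plus strand: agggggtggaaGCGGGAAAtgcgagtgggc
The matches of Chek2, Brca2, Bard1, Msh3 and Xrcc6 began 152, 168, 209, 202 and 46 bases before the start site, that of Rad51c 5 bases before it, and that of Msh6 lay 15 bases after it. Rad51c and Msh3 each held a further match, at another start site and overlapping the printed match respectively. Of the 7 genes, Chek2, Brca2, Bard1, Rad51c and Msh6 were called higher in mESCs, 5 of 7, and 19 of the 37 matched members without the letters were called higher. An NRF1 motif was present in 13.6% of the 44 against 5.2% of all genes, the letters CCAAT in 54.5% against 41.1%, and the CHR letters TTTGAA or TTCGAA, which mark many genes of G2 and mitosis, in 11.4% against 21.7%. The genes compared with were not restricted to those expressed here and were not matched for base composition, so these shares are not specific to repair genes. A match of letters is a description and not a measured binding site.

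In damage signalling, 6 of the 8 genes were higher in mESCs (75.0%, against 22.8% of all genes tested). The summed level of the group was 378 to 441 CPM in MEFs and 805 to 866 CPM in mESCs. Trp53 and Mdm4 together gave most of this sum in every library. Atm, the kinase that answers double-strand breaks, was at 21.6, 12.2, 19.5 and 28.0 CPM in MEFs A to D and at 33.4, 37.8 and 51.9 CPM in mESCs A to C. Atr, the kinase that answers stalled replication, was at 19.4, 9.59, 20.7 and 20.0 CPM in MEFs and at 34.9, 29.7 and 28.2 CPM in mESCs. Neither gene overlapped between the cell types, although MEF B lay well below the other MEF libraries for Atr. The log2 fold changes were 1.02 ± 0.28 (SE) for Atm and 0.83 ± 0.27 for Atr, with edgeR adjusted p of 0.0109 and 0.0266. The call of Atm was lost without mESC C (log2 fold change 0.81, edgeR adjusted p = 0.0568), and that of Atr without mESC A (0.73, adjusted p = 0.0982) or mESC B (0.86, adjusted p = 0.0532).

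The checkpoint kinases that Atr and Atm activate were both called. Chek1 was at 22.1, 30.9, 18.6 and 22.1 CPM in MEFs and at 59.0, 56.9 and 69.0 CPM in mESCs (log2 fold change 1.39 ± 0.20 SE, edgeR adjusted p = 0.000218). Chek2 was at 9.69, 4.43, 11.1 and 7.16 CPM in MEFs and at 32.9, 21.2 and 26.4 CPM in mESCs (1.73 ± 0.32, edgeR adjusted p = 0.00112). Every mESC library exceeded every MEF library for both kinases. Trp53bp1, a chromatin reader at breaks that favours end joining, spread from 5.49 to 15.1 CPM in MEFs and from 5.31 to 13.9 CPM in mESCs and was not called. Its 95% interval of the log2 fold change ran from -1.02 to 0.79.

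Of p53 and its inhibitors, Trp53 and Mdm4 were higher in mESCs and Mdm2 was not called. Trp53, which encodes p53, was at 166, 160.0, 145 and 113 CPM in MEFs and at 219, 231 and 217 CPM in mESCs. All mESC libraries were above all MEF libraries, and the log2 fold change was 0.61 ± 0.16 (SE, edgeR adjusted p = 0.00806), which did not pass the test against 1.5-fold. Mdm4, which blocks the activation domain of p53, was at 117, 145, 140.0 and 132 CPM in MEFs and at 396, 355 and 349 CPM in mESCs, a 2.75-fold difference without overlap (log2 fold change 1.46 ± 0.13, edgeR adjusted p = 8.07e-06). Mdm2, the ubiquitin ligase that degrades p53 and is itself a p53 target, was at 46.3 to 70.7 CPM in MEFs and 62.9 to 86.2 CPM in mESCs, with overlapping libraries and no call (0.29, 95% interval -0.15 to 0.74). Without the TMM scaling Mdm2 was called higher as well (0.58, edgeR adjusted p = 0.0283). Both Trp53 and Mdm4 have an annotated pseudogene, and 3.95% and 7.31% of their 50-base sequences also occur in other annotated transcripts, so these counts carry some uncertainty.

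Among 29 genes known as p53 targets, 28 were tested, and 6 were higher and 6 lower in mESCs, with a median log2 fold change of 0.14. These are 21.4% in each direction, near the 22.8% and 25.0% over all genes tested, so the counts are no result about this list. This list includes the members Mdm2, Xpc, Ercc5 and Ddb2, of which Xpc was called higher. Pmaip1 (Noxa, a death-promoting BH3 protein) was at 38.8 to 65.1 CPM in MEFs and 255 to 398 CPM in mESCs (log2 fold change 2.69), and Trp53inp1 (2.14) and Psrc1 (1.33) were the next higher. Plk2, a stress-induced kinase, was at 159 to 549 CPM in MEFs and 16.9 to 34.1 CPM in mESCs (log2 fold change -3.84), and Fas (-3.37), the death receptor, which passed the filter on low counts only through MEFs, and Phlda3 (-2.22), an Akt inhibitor, were the next lower. Cdkn1a, which encodes the cell cycle inhibitor p21 and is named here after its values were seen, was at 481, 428, 550 and 411 CPM in MEFs and at 211, 163 and 143 CPM in mESCs. All MEF libraries were above all mESC libraries for Cdkn1a (log2 fold change -1.44 ± 0.17 SE, edgeR adjusted p = 5.86e-05). The other 16 of the 28 were not called. Without the TMM scaling, 12 targets were called higher and 6 lower.

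**Figure D3:**
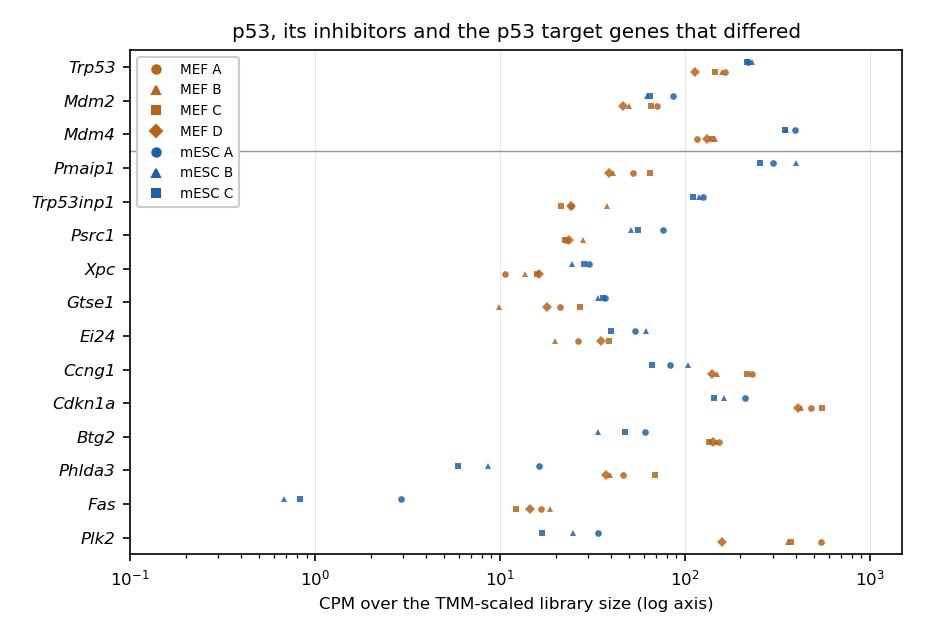
Level of Trp53, Mdm2 and Mdm4 (top) and of the 12 p53 target genes that were called (bottom, in falling order of their log2 fold change), in CPM over the TMM-scaled library size on a log axis, with 1 point per library. The mESC points lie right of the MEF points for 6 targets, from Pmaip1 to Ei24, and left of them for 6, from Ccng1 to Plk2.

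The Mre11a-Rad50-Nbn complex detects and trims broken ends. Mre11a, the nuclease, was at 17.7, 18.3, 24.8 and 12.7 CPM in MEFs and at 33.3, 26.1 and 40.3 CPM in mESCs. Rad50, the ATPase that tethers the ends, was at 130.0, 108, 102 and 142 CPM in MEFs and at 192, 217 and 238 CPM in mESCs. Both were higher in mESCs with no overlap, by 0.85 ± 0.25 (SE) and 0.84 ± 0.16 on the log2 scale (edgeR adjusted p = 0.0173 and 0.00138). Nbn, the subunit that recruits Atm, had a negative value and did not pass the test, at 30.7 to 41.0 CPM in MEFs and 20.4 to 31.7 CPM in mESCs (-0.43, edgeR adjusted p = 0.119). The call of Mre11a was lost without mESC C (0.68, edgeR adjusted p = 0.083) and stood at an adjusted p of 0.0501 without mESC A.

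In homologous recombination, the pathway with the most listed genes, 7 of 10 were higher in mESCs (70.0%). The share was 75.0% in damage signalling and 22.8% over all genes tested. The summed level of homologous recombination was 123 to 137 CPM in MEFs and 389 to 474 CPM in mESCs. Brca1, the tumour suppressor that promotes end resection, lies at chr11:101488764-101551955 on GRCm38 and was at 8.83, 8.63, 8.08 and 7.0 CPM in MEFs and at 51.2, 49.3 and 46.4 CPM in mESCs. Brca2, which loads the recombinase onto single-stranded DNA, lies at chr5:150522630-150570329 and was at 20.7, 24.2, 20.7 and 27.2 CPM in MEFs and at 94.0, 134 and 124 CPM in mESCs. Blm, the helicase that dissolves recombination intermediates, was at 27.1, 16.3, 21 and 25.6 CPM in MEFs and at 77.0, 94.6 and 103 CPM in mESCs. In all 3 genes the lowest mESC library stood far above the highest MEF library. Their differences were 5.99-fold, 5.07-fold and 4.07-fold, with log2 fold changes of 2.58 ± 0.19, 2.34 ± 0.18 and 2.02 ± 0.21 (SE) and edgeR adjusted p of 1.53e-06, 2.69e-06 and 1.81e-05. The libraries of each cell type were also close together for Brca1, whose SD was 0.82 CPM around a mean of 8.13 CPM in MEFs (n = 4) and 2.42 CPM around 48.9 CPM in mESCs (n = 3).

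Of the partners of Brca1 and Brca2, the members Palb2 and Bard1 were also higher. Palb2, which links both proteins, had a log2 fold change of 1.91 and ran from 4.29 to 8.73 CPM in MEFs and from 14.3 to 31.9 CPM in mESCs. Bard1, the ring partner of Brca1, had one of 1.80, with 11.9 to 24.8 CPM in MEFs and 55.3 to 65.2 CPM in mESCs. Rad54l, a DNA translocase (1.37), and Rad51c, a recombinase paralog (1.15), were called higher with no overlap as well. The remaining genes did not pass. Xrcc2, another paralog, did not overlap between cell types (2.86 to 4.57 CPM against 6.25 to 8.73 CPM) and had an edgeR adjusted p of 0.0542, while DESeq2 gave 0.0349. Xrcc3 had few counts, between 1 and 9 in MEFs and between 10 and 29 in mESCs, and a wide 95% interval of -0.15 to 3.10. Rad52, an annealing factor, was at 13.6 to 21.5 CPM in MEFs and 13.1 to 16.2 CPM in mESCs (-0.23, 95% interval -0.78 to 0.31), with a log2 fold change of 0.04 without TMM. For Rad54l, 22.9% of the last 500 exonic bases lie over exons of Lrrc41 on the other strand.

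In the Fanconi anaemia pathway, 4 of 6 genes were higher in mESCs (66.7%, against 22.8% of all genes tested), at low levels. Fancd2, which is ubiquitinated at crosslinks, was at 6.43, 3.48, 5.79 and 8.75 CPM in MEFs and at 26.2, 19.9 and 27.3 CPM in mESCs. Fanca, of the core complex, was at 3.07, 1.68, 3.2 and 0.795 CPM in MEFs and at 5.53, 9.43 and 10.1 CPM in mESCs. Fancc, also of the core complex, was at 3.07, 6.95, 3.66 and 4.29 CPM in MEFs and at 9.97, 11 and 8.85 CPM in mESCs. None of these genes overlapped between cell types, with log2 fold changes of 2.0 ± 0.31, 1.91 ± 0.48 and 1.14 ± 0.35 (SE) and edgeR adjusted p of 0.00036, 0.00717 and 0.0203. Fancl, the ubiquitin ligase of the complex, was higher by 0.82 (edgeR adjusted p = 0.0215). Fancc lost its call without mESC A or B (edgeR adjusted p = 0.0529 and 0.0676) and Fancl without MEF D, mESC B or mESC C (0.0512, 0.052 and 0.0728). Fancb (0.78, edgeR adjusted p = 0.0766) did not overlap between cell types but was not called, and Fanci, the partner of Fancd2, was not called and spread from 2.93 to 9.32 CPM within mESCs. Overlap with exons on the other strand reached 33.4% of the last 500 exonic bases for Fanca (Zfp276), 32.5% for Fancl (Vrk2), 18.6% for Fanci (Polg) and 17.1% for Fancd2 (Fancd2os), and the sources used here do not give the strand setting of the counting.

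Mismatch repair held the member with the largest difference. Msh6, the subunit that recognises single mismatches, lies at chr17:87975062-87990892 and was at 7.29, 9.11, 9.6 and 9.54 CPM in MEFs and at 87.0, 91.9 and 78.1 CPM in mESCs. The lowest mESC library stood far above the highest MEF library, and the log2 fold change was 3.27 ± 0.18 (SE, edgeR adjusted p = 2.2e-07). Msh3, which occupies the same place as Msh6 in the complex that recognises larger loops, was at 8.99 to 16.5 CPM in MEFs and 13.5 to 20.8 CPM in mESCs and was not called (0.46, 95% interval -0.15 to 1.08). Exo1, the exonuclease that removes the mismatched strand, was at 16.3, 15.7, 16.0 and 18.8 CPM in MEFs and at 43.0, 50.9 and 56.7 CPM in mESCs. All mESC libraries were above all MEF libraries for Exo1 (1.59 ± 0.18, edgeR adjusted p = 3.98e-05). Pms2, an endonuclease subunit, was at 9.11 to 15.1 CPM in MEFs and 13.5 to 20.6 CPM in mESCs (0.63, edgeR adjusted p = 0.0755) and passed without MEF C (0.78, adjusted p = 0.0391).

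In base excision repair, 4 of 8 genes tested were higher in mESCs, and the summed level was 217 to 236 CPM in MEFs and 596 to 706 CPM in mESCs. The largest part of the mESC sum came from Parp1. Ung, the glycosylase that removes uracil from DNA, lies at chr5:114130386-114139323 and was at 12.9, 8.15, 15.2 and 8.91 CPM in MEFs and at 78.6, 88.3 and 90.1 CPM in mESCs. Parp1, the polymerase that marks strand breaks with poly(ADP-ribose), lies at chr1:180568924-180601254 and was at 72.9, 62.4, 67.8 and 77.8 CPM in MEFs and at 306, 287 and 331 CPM in mESCs. Apex1, the endonuclease that cuts at abasic sites, was at 5.66, 2.28, 3.35 and 0.795 CPM in MEFs and at 8.45, 13.2 and 14 CPM in mESCs. The cell types did not overlap in any of these genes, and the differences were 7.58-fold for Ung (log2 fold change 2.92 ± 0.23 SE, edgeR adjusted p = 2.93e-06), 4.39-fold for Parp1 (2.13 ± 0.14, 7.15e-07) and 3.84-fold for Apex1 (1.94 ± 0.51, 0.0092). Of the last 500 exonic bases of Apex1, 80.6% lie over exons of Pip4p1 on the other strand, so its counts are uncertain.

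Parp2, the second enzyme of its kind that breaks activate, was at 50.3 to 61.5 CPM in MEFs and 93.3 to 132 CPM in mESCs (1.07, edgeR adjusted p = 0.000373). Xrcc1, the scaffold of single-strand break repair, was at 56.1 to 66.9 CPM in MEFs and 64.4 to 106 CPM in mESCs and was not called (0.40, edgeR adjusted p = 0.107), although it passed without mESC B (0.54, adjusted p = 0.0472). Mutyh, which removes adenine paired with oxidised guanine, missed the threshold (1.17, edgeR adjusted p = 0.0516) and passed it without MEF C, MEF D or mESC B (adjusted p of 0.0312, 0.0459 and 0.0429) and in DESeq2 (0.0278). Neil3 (0.55) and Lig3 (0.25), a glycosylase and a ligase, were not called. Ogg1, the glycosylase for oxidised guanine, had between 0 and 5 counts in each of the 7 libraries and was not tested, so neither a level nor a difference was detectable at this depth.

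Nucleotide excision repair held both of the members that were lower in mESCs, and 1 that was higher. Of its 5 genes tested these are 40.0% and 20.0%, against 25.0% lower and 22.8% higher over all genes tested. With so few genes, the counts are no result about this pathway. Its summed level was 103 to 125 CPM in MEFs and 87.7 to 108 CPM in mESCs, with overlapping libraries. Xpa, which verifies the lesion, was at 49.9, 43.9, 44.5 and 53.1 CPM in MEFs and at 22.0, 25.7 and 31.3 CPM in mESCs, without overlap (log2 fold change -0.86 ± 0.18 SE, edgeR adjusted p = 0.00287). Ercc1, the partner of the nuclease that cuts 5′ of the lesion, was at 3.17, 4.91, 5.49 and 7.95 CPM in MEFs and at 2.38, 1.93 and 2.6 CPM in mESCs (-1.21 ± 0.43, edgeR adjusted p = 0.0391). Its groups did not overlap, but its libraries held between 17 and 50 counts. The call of Ercc1 rested on all but 1 of the libraries: it was kept without MEF A and lost without any other, with log2 fold changes from -1.41 to -0.97 and adjusted p up to 0.113. Leaving out MEF B gave 0.057, MEF C 0.0618, MEF D 0.0976, mESC A 0.0859, mESC B 0.113 and mESC C 0.0733. It was also lost without the TMM scaling (-0.94, adjusted p = 0.103) and without a filter beyond 1 count (-1.24, adjusted p = 0.0757), and in the test against 1.5-fold (adjusted p = 0.103).

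Xpc, the damage sensor of this pathway over the whole genome, was at 10.6, 13.7, 15.9 and 16.2 CPM in MEFs and at 30.3, 24.5 and 28.7 CPM in mESCs. It was higher in mESCs without overlap, opposite to Xpa (log2 fold change 0.99 ± 0.22 SE, edgeR adjusted p = 0.00376). The helicase gene Ercc2 was at 5.51 to 9.98 CPM in MEFs and 7.08 to 9.86 CPM in mESCs, and the nuclease gene Ercc5 at 28.7 to 42.7 CPM and 26.7 to 38.2 CPM. Neither was called, and the sign of the log2 fold change was not stable: that of Ercc2 was 0.09 and turned to -0.04 without MEF B and -0.06 without mESC A, and that of Ercc5 was -0.22 and turned to 0.06 without TMM. Ddb2, a sensor of ultraviolet damage, had between 0 and 10 counts per library and was not tested. Of its last 500 exonic bases, 82.5% lie over exons of Acp2 on the other strand. For Ercc2, 28.7% of these bases lie over exons of Klc3 on the other strand.

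Non-homologous end joining had 2 of 5 genes higher in mESCs (40.0%, against 22.8% of all genes tested). Of the Ku subunits, Xrcc5 was called and Xrcc6 was not. Xrcc5, the larger Ku subunit, was at 15.2, 33.9, 18.8 and 28.8 CPM in MEFs and at 94.7, 117 and 126 CPM in mESCs, a 4.67-fold difference without overlap (log2 fold change 2.22 ± 0.27 SE, edgeR adjusted p = 5.82e-05). Xrcc6, the smaller Ku subunit, was at 32.9 to 43.6 CPM in MEFs and 46.4 to 52 CPM in mESCs, without overlap but not called (0.40, edgeR adjusted p = 0.0685; DESeq2 0.0461). Prkdc, the catalytic subunit that Ku brings to the ends, was at 4.22, 7.91, 3.35 and 13.2 CPM in MEFs and at 12.9, 17 and 34.4 CPM in mESCs. Its libraries overlapped, since MEF D lay above mESC A, and the call (1.59 ± 0.48, edgeR adjusted p = 0.0192) was lost without mESC C (1.06, adjusted p = 0.118). Xrcc4 (0.22) and Lig4 (0.63), the ligation complex, were not called.

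Mgmt, which removes methyl groups from guanine in a direct reversal, was at 20.1, 11.3, 11.4 and 17.3 CPM in MEFs and at 31.2, 42.7 and 35.9 CPM in mESCs. All mESC libraries were above all MEF libraries (log2 fold change 1.28 ± 0.25 SE, edgeR adjusted p = 0.00178).

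Ratios between members with related roles were compared within each library, because such a ratio does not depend on the scaling between libraries. In counts, the ratio of Msh6 to Msh3 was 0.51, 0.828, 1.07 and 0.581 in MEFs and 6.38, 4.97 and 3.75 in mESCs, and that of Xrcc6 to Xrcc5 was 2.87, 1.04, 2.1 and 1.14 in MEFs and 0.49, 0.441 and 0.413 in mESCs. The ratio of Mdm2 to Mdm4 was 0.607, 0.345, 0.471 and 0.353 in MEFs and 0.218, 0.178 and 0.186 in mESCs. None of these overlapped between cell types, and neither did Parp1 to Parp2 (1.08 to 1.45 against 2.3 to 3.28) and Rad54l to Rad52 (0.289 to 0.717 against 1.03 to 1.79). The differences in log2 ratio, mESC minus MEF, were 2.78 for Msh6/Msh3, -1.87 for Xrcc6/Xrcc5, 1.62 for Rad54l/Rad52, -1.16 for Mdm2/Mdm4 and 1.07 for Parp1/Parp2. The exact permutation test over the 35 arrangements, two-sided, gave 0.0286, the smallest p it can give, for all of these except Rad54l/Rad52 (0.0571). After adjustment over the 8 pairs the values were 0.0571 for those and 0.0914 for Rad54l/Rad52, so none passed. For a pair at the smallest p, the adjusted value was set by how many pairs reached that p. With so few libraries, this test could therefore not decide on a single pair. Atr/Atm (-0.16), Chek1/Chek2 (-0.36) and Ercc2/Ercc5 (0.33) overlapped between cell types, with exact p of 0.571, 0.686 and 0.486.

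**Figure D4:**
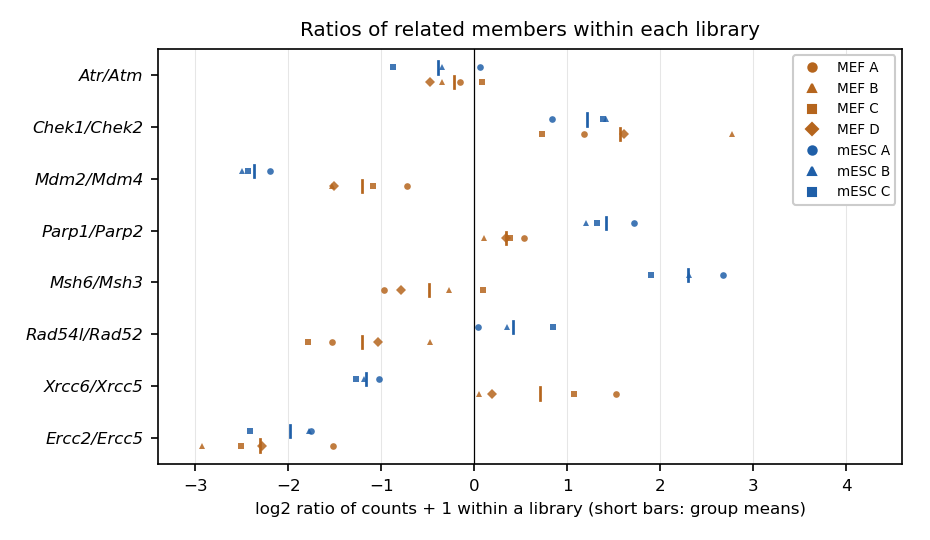
log2 ratio of the counts (plus 1) of related members within each library, with MEF libraries in brown, mESC libraries in blue and a short bar at each group's mean. The groups are apart for Mdm2/Mdm4, Parp1/Parp2, Msh6/Msh3, Rad54l/Rad52 and Xrcc6/Xrcc5 and overlap for the other ratios.

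Further genes of the same pathways were taken from a list of 58, also chosen with earlier results known, of which 56 were tested. Of these, 22 were higher and 3 lower in mESCs, with a median log2 fold change of 0.46 and 45 positive values. The shares were 39.3% higher and 5.4% lower, against 22.8% and 25.0% over all genes tested. Neil2, a glycosylase for oxidised bases, was at 0 to 0.959 CPM in MEFs and 8.24 to 12.9 CPM in mESCs. It passed the filter on low counts only through mESCs, where it is high, and its fitted log2 fold change of 4.38 rests on 0 to 10 counts per MEF library. Fan1 also passed the filter only through mESCs and Nhej1 only through MEFs, and neither was called. Dna2 (2.64), a nuclease of end resection, and Ube2t (2.44), the ubiquitin conjugating enzyme of the Fanconi anaemia pathway, were the next higher. The lower genes were Fancf (-1.30), Alkbh3 (-1.16), a demethylase of alkylated bases, and Ddb1 (-0.48), the partner of Ddb2. Each of these was lost when 1 library was left out. Fancf was lost without mESC B or mESC C (edgeR adjusted p = 0.0646 and 0.0649), Alkbh3 without MEF B, mESC B or mESC C (0.0617, 0.0703 and 0.0661) and Ddb1 without mESC C (0.0556), and without mESC C none of the list was called lower. The test against 1.5-fold left 13 higher, where 15.6% of all genes were higher, and none lower.

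Genes of replication and cell division were also higher in mESCs in part. Of 15 proliferation markers, 9 were higher in mESCs and 0 lower (edgeR, and also 0 at an unadjusted p under 0.05 and 0 by DESeq2). The share called higher was 60.0%, near the 58.0% of the members tested. Over all genes tested, 22.8% were called higher and 25.0% lower. The markers had a median log2 fold change of 0.92 and a summed level of 2080 to 3140 CPM in MEFs and 4070 to 4330 CPM in mESCs. The replicative helicase gene Mcm7 was at 32.1 to 49.7 CPM in MEFs and 131 to 158 CPM in mESCs (log2 fold change 1.94), followed by Mcm3 (1.54) and Mcm2 (1.48). Mki67, Ccna2, Cdk1, Rrm2, Tyms and Birc5 were not called, with log2 fold changes between -0.05 and 0.27, and none of the 15 was at 0 in any library. The part of cycling cells in the differences of the repair genes was not tested.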

How the data were processed

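RNA was measured in 4 MEF and 3 mESC libraries made with a 3′-biased protocol and molecular identifiers. The authors demultiplexed and trimmed the reads, aligned them to mm10 (GRCm38) with STAR, collapsed reads that shared a molecular identifier, and counted unique alignments on exons with featureCounts. They deposited whole-number counts per gene without normalization. The STAR version in the submitters' processing notes is 2.4.2a, which differs from that in the study's methods, and the annotation release and strand setting are not given in the sources used here. The 26 symbols turned into dates held 0.249% of counts and are not reported by name.

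The count columns are headed MEF1 or mESC1, then a letter (O in all MEF and Y in all mESC columns) that the sources do not explain, then a running number. Whatever the letter stands for cannot be told apart from cell type. The shared prefix and the numbers could not be tied to numbered samples, so libraries were assigned to cell types only. In pairs of libraries of the same type, counts differed by more than sampling noise. Genes were filtered with filterByExpr, scaled by TMM and tested in edgeR 4.0.16 (limma 3.58.1, R 4.3.3) with the quasi-likelihood method over all 7 libraries without covariates, and 16580 genes were tested. Standard errors and 95% intervals were derived from its F statistic. The alternatives were DESeq2 1.42.0, library size without TMM, DESeq2 size factors in edgeR, a filter of 1 count, a filter of 10 counts in every library of 1 cell type, a test against a fold change of 1.5, and leaving out each library. Pair ratios used a pseudocount of 1 (alternative 0.5) and an exact permutation test on the absolute difference of means. Doubling the one-sided p was added after the values were seen. The code was tested on simulated data with 200 genes altered. At a log2 fold change of 1, edgeR found 22 of these with 1 false call, and DESeq2 71 with 22 false calls. At a log2 fold change of 2, edgeR found 149 with 9 false calls, and DESeq2 155 with 41. Simulated data without any difference gave 6 false calls in DESeq2 and 0 in edgeR. A member that was not called here can therefore still differ, and a pass in DESeq2 alone carries less weight.

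The members and gene lists were chosen with earlier results of these data known. Every member is named with its call. Levels in every library are given for up to 3 called members per pathway and direction with the largest difference and for Trp53, Atm, Atr, Brca1, Brca2, Parp1, Prkdc and Mgmt; no member was at or under 3 counts throughout only 1 cell type. Of each other list, up to 3 called genes per direction are named. Gene positions and exon overlaps are from GENCODE M21 on GRCm38, promoters from RefSeq on GRCm38.p6.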

Additional observations from a re-analysis of the deposited data

Results flagged for a closer look

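Among the members, the level of Atr in MEF B (9.59 CPM) stood apart from the other MEF libraries, which lay between 19.4 and 20.7 CPM. The gap to the nearest library was 0.879 of the whole range of the group, above the limit used for 4 values. Of the 52 members tested in this way, 1 was marked, and chance would mark about 2.6, so such a mark can arise without a cause. Without MEF B, the log2 fold change of Atr was 0.62 and remained called.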

How the results depend on the processing

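The number of members higher in mESCs was 29 and ran from 22 (test against 1.5-fold) to 37 (no TMM) over the alternatives and from 25 to 31 with 1 library left out. The number lower was 2 and fell to 1 without TMM, 1 without a filter beyond 1 count and 0 in the test against 1.5-fold, and was 1 to 2 with 1 library left out. For the other repair genes, the test against 1.5-fold left 13 higher and 0 lower, no TMM left 1 lower, and leaving out 1 library gave 0 to 4 lower. Without TMM, 12 p53 targets were higher. Of 855 values of named genes under an alternative, 789 kept direction and call, 40 lost the call, 19 gained it and 7 changed sign. The sign changes were Trp53bp1 (0.17), Rad52 (0.0435) and Ercc5 (0.0628) without TMM, and with 1 library left out Trp53bp1 (range -0.464 to 0.181) and Ercc2 (-0.0618 to 0.245), none of which was called. Leaving out TMM moved the median of all genes by 0.28, and otherwise the cause was not tested. The differences in pair ratio moved by less than 1 SD in all 56 values with 1 library left out, and no pair passed with a pseudocount of 0.5. With the one-sided p doubled no pair could pass, since the smallest p is then 0.0571 before adjustment. No paired analysis was possible because the count columns are not tied to numbered samples. Depth limits Ogg1, Ddb2 and Xrcc3.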

Other observations

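Gadd45a, a growth-arrest gene that is also a p53 target, spread widely within each cell type, at 97.6, 192, 88.6 and 57.1 CPM in MEFs and at 187, 391 and 70.4 CPM in mESCs, and was not called.

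Of 7 endothelial and epithelial markers, Cdh1, Epcam and Pecam1, which mESCs are known to express, were called higher in mESCs (log2 fold changes 4.74, 4.48 and 3.42). Krt5 and Krt14, keratins of basal epithelium, were at 34.0 to 44.7 CPM and 36.4 to 48.2 CPM in MEFs and at 32.8 to 38.7 CPM and 36.2 to 45.8 CPM in mESCs and were not called, nor was Tek, and Cdh5 was not tested. The summed level of these 7 was 93.2 to 112 CPM in MEFs and 425 to 496 CPM in mESCs. Of 7 blood markers, Laptm5 was called higher in mESCs (0.152 to 7.19 CPM in MEFs, 52.6 to 62.4 CPM in mESCs) and Cd53 lower (7 to 30 counts in MEFs, 0 to 3 in mESCs), each having passed the filter on low counts only through the cell type where it is high. Ptprc, the defining marker of blood cells, held 0 to 17 counts in each library, Cd48 held 1 to 10 counts in MEFs and 0 to 1 in mESCs, and Spi1, Vav1 and Coro1a held 0 to 19 counts in each. The summed level of the blood markers was 2.59 to 15.6 CPM in MEFs and 54.7 to 63.6 CPM in mESCs. Nearly all of the mESC sum was Laptm5 (52.6 to 62.4 CPM), so it does not describe the list as a whole. Of 7 endoderm and trophoblast markers, Tfap2c was called higher in mESCs (log2 fold change 4.03) and Gata6 was not called. The other 5 were not tested, among them Sox17, which held 0 counts in all MEF libraries and 51, 41 and 9 in mESCs, and Foxa2, with 0 in all MEF libraries and 21, 18 and 4 in mESCs. The summed level of this list was 29.3 to 40.7 CPM in MEFs and 74.2 to 93.2 CPM in mESCs. Most of the mESC sum was Tfap2c (50.6 to 78.8 CPM). The part of other cell types in the results on repair genes was not tested.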
